A study of Mus musculus with 8 samples.

Results

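Solute carriers are membrane proteins that move small molecules and ions across the plasma membrane, the mitochondrial inner membrane and the membranes of lysosomes, vesicles and the Golgi. They are grouped in numbered Slc families by sequence, and most families keep to 1 kind of substrate, such as glucose, amino acids, zinc or nucleotide sugars. In macrophages they supply sugars and amino acids to activated cells, set the zinc and copper content of cytosol and phagosome, and carry digestion products out of the lysosome. The genes described here are those on the array whose symbol begins with Slc and a digit or with Slco, apart from 8 genes of glucose, arginine, cystine, large neutral amino acid, iron and heme transport (Slc2a1, Slc7a2, Slc7a5, Slc7a11, Slc11a1, Slc11a2, Slc40a1 and Slc48a1) that the rule left out. The array held 490 such probes for 337 symbols, or 329 genes after the 8 were left out. Each gene was read by its brightest probe, and 165 of the 329 genes (50.2%) had an intensity above 200 on both arrays of at least 1 group. These 165 are described here, among 9341 features that passed the same filter over the whole array. A gene that passed only through a group where it was bright had to differ between groups, so counts over the 165 describe the genes that passed and not the whole family.

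C57BL/6 mice gave the bone marrow-derived macrophages, whose RNA was read on Illumina MouseRef-8 arrays. The marrow cells had been grown in 30% L929-conditioned medium, which supplies the growth factor M-CSF, moved on day 7 to medium with 15% of it and stimulated on day 8. The 4 groups were unstimulated macrophages, macrophages given interferon gamma (IFNγ) at 10 ng/ml, macrophages given sheep red blood cells opsonised with mouse IgG2a (10 red cells to each macrophage), and macrophages given both, with 6 h of stimulation. Each group had 2 arrays, and all groups shared the strain, the culture and the growth factor. The antibody-coated red cells are called opsonised cells below.

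Over all probes the Pearson correlation was 0.992 to 0.994 within groups and 0.952 to 0.984 between groups. The 6 macrophage markers on the array lay above 200 in all 4 groups, and their summed intensity ran from 37690 to 42940 over the 8 arrays. Lyz2, with group geometric means of 26340 to 28520, made up most of that sum, which hides moves of single markers. With IFNγ Fcgr1 went from 799 to 3807 and Cd14 from 8291 to 3396, while the other 4 changed less. Mertk was at 888 with opsonised cells and 1978 under both. Of the neutrophil markers, 5 of 8 lay above 200 in some group. The summed intensity of the 8 was 3639 to 3747 in unstimulated macrophages and 3722 to 4008 with IFNγ. It was 3074 to 3638 with opsonised cells and 4382 to 4488 under both. S100a8 made up the largest part of that sum, with group geometric means of 1911, 2006, 1721 and 2498 in the same order. S100a9 followed the same order of groups, with 457, 537, 349 and 582. Elane, Ngp and Ltf were called in no comparison, and Mpo, Cxcr2 and Camp did not pass the filter. Of the erythroid markers 2 of 7 lay above 200 in some group and none in all groups, and of T and NK cell and dendritic cell markers 0 of 6 and 0 of 5. B cell markers passed in 2 of 4 cases, mast cell and basophil markers in 1 of 4 and fibroblast markers in 1 of 6. The part of other cells in the results below was not tested, and in bulk RNA a change in the number of cells of a type cannot be told apart from a change in RNA per cell.

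Solute carrier genes moved in both directions under each stimulus. With IFNγ, 18 of 165 were higher and 17 lower than in unstimulated macrophages, against 9.45% higher and 12.4% lower over all features. A gene was called when limma's moderated test gave a Benjamini-Hochberg adjusted p under 0.05 over all 9341 features. With opsonised cells, 18 were higher and 6 lower, against 6.06% and 6.17% over all features. With both stimuli, 36 were higher and 28 lower, against 14.5% and 20.6%. As shares of the 165, these were 10.9% higher and 10.3% lower with IFNγ, 10.9% and 3.64% with opsonised cells, and 21.8% and 17% with both. The shares lay near those of all features for IFNγ, and above them for higher and below them for lower calls in the other 2 comparisons. The median log2 change of the 165 was -0.01 with IFNγ, 0.03 with opsonised cells and -0.00139 under both, beside -0.04, -0.01 and -0.03 over all features. These 3 comparisons share the unstimulated arrays. Changes of 2-fold or more were few: 5 up and 2 down with IFNγ, 4 up and 2 down with opsonised cells, and 7 up and 2 down with both. In all, 85 of the 165 were called in at least 1 of 6 comparisons and 80 in none.

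With 2 arrays a group, many of the smaller calls depended on single arrays. Of the calls against unstimulated macrophages, 9 of 18 higher and 5 of 17 lower with IFNγ were kept in each of 8 fits that left out 1 array, as were 7 of 18 and 3 of 6 with opsonised cells and 18 of 36 and 17 of 28 with both. Genes named below as having risen or fallen were kept in all 8 such fits unless it is said otherwise. The 35 calls with IFNγ became 23 without unstimulated array 2 and 20 without IFNγ array 2, and the 24 with opsonised cells became 11 without unstimulated array 1 and 12 without opsonised-cell array 2. When the arrays were normalized by cyclic loess, the IFNγ split became 19 higher and 9 lower. Shifting each array by the median level of 12 housekeeping genes gave 5 higher and 92 lower with IFNγ, 7 and 89 with both, and 6 and 81 when IFNγ was added to opsonised cells. That shift rests on the 2 genes in the middle of the list by mean level, Ywhaz and Hprt, of which Hprt itself rose by 0.74 with IFNγ, and it moved the median of all features to -0.46 with IFNγ and -0.48 with both. With the same genes centred on their own means first, a variant added after the data were seen, the splits were 19 and 14 with IFNγ and 41 and 26 with both. Changes below are in the deposited scaling.

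**Figure D1:**
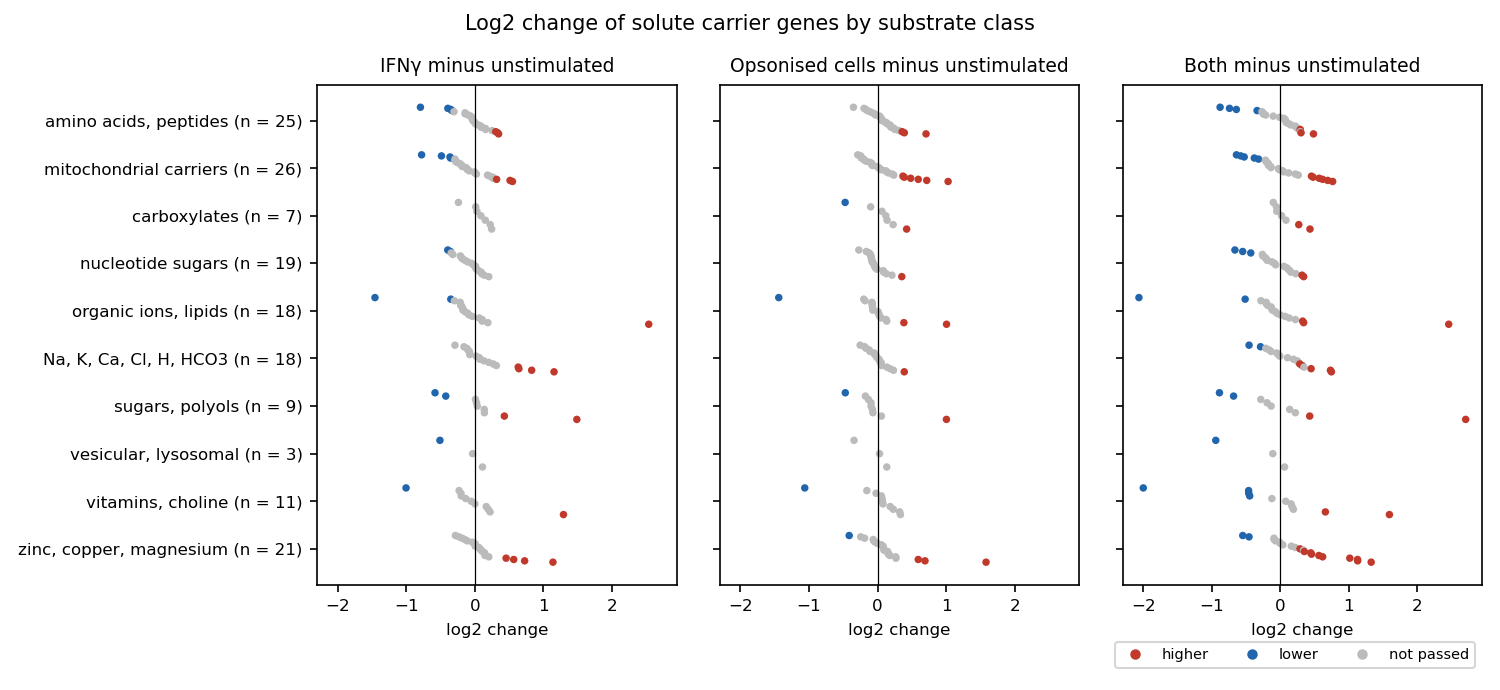
Log2 change against unstimulated macrophages (x axis) of the solute carrier genes that passed the intensity filter, by substrate class (rows), for IFNγ, opsonised cells and both. Each point is 1 gene, spread vertically by rank within its class, red where higher and blue where lower at an adjusted p under 0.05 and grey otherwise; classes of fewer than 3 genes and 3 genes that are not transporters are left out. Most genes lie close to 0, and Slc2a6 and Slco3a1 on the right and Slco2b1 and Slc46a3 on the left lie farthest out.

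For 2 genes with a large change, 250 bases upstream of the RefSeq transcript start (GRCm38.p6) are shown, because each holds letters of a motif of oxidant-response genes or of genes regulated by the metal it carries. The motifs searched on both strands were the NRF2 motif of oxidant-response genes (TGACNNNGC), the E-box (CACGTG) and the metal response element of zinc-regulated genes (TGCACNC or TGCGCNC). The table of promoters, which also reach 50 bases past the start, held 133 of the 165 genes. Capitals mark the named match, which overlapped no match of another motif. Slc25a33 lies on the minus strand at chr4:149774268-149774517, with the NRF2 motif on the opposite strand of the promoter in capitals and an E-box in lower case near the start.
Slc25a33: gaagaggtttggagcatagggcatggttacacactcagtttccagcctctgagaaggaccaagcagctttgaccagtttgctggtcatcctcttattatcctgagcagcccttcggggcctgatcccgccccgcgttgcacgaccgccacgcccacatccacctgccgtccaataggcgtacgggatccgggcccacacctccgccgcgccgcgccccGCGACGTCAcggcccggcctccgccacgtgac
The promoter of Slc30a1 lies on the plus strand at chr1:191906531-191906780, with the metal response element, read on the opposite strand, in capitals and an NRF2 match further upstream in lower case.
Slc30a1: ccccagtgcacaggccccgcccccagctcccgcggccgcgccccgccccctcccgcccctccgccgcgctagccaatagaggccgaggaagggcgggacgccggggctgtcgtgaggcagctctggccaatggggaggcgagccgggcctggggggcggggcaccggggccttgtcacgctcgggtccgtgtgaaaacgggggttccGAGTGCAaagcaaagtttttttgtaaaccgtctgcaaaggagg

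These motifs are short and common. Of 32851 promoters of 300 bases in the table, 12.4% held the NRF2 motif, 7.15% the E-box, and 12.6% and 15.4% the A and G forms of the metal response element. Among the 178 promoters of the solute carrier genes the shares were 18%, 14.6%, 17.4% and 20.8%. The promoters of Slc2a6 and Slc31a1 held none of these motifs, which says nothing of the factors themselves. Genes that fell held them too. The promoter of Slc46a3 held NRF2 and metal response element letters, and that of Slc30a5 held those and an E-box. The 2 stretches shown were picked for holding a motif, and a link between motif and direction of change was not tested. The metal response element was added to the search after zinc transporter genes had been seen to rise.

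Among the transporters of sugars and polyols, 9 genes passed the filter, of which 2 rose and 2 fell with IFNγ, 1 rose and 1 fell with opsonised cells, and 2 rose and 2 fell with both. With IFNγ this was 22.2% each way, beside 9.45% higher and 12.4% lower over all features. The shares were 11.1% each way with opsonised cells, beside 6.06% and 6.17%, and 22.2% each way with both, beside 14.5% and 20.6%. Slc2a6 encodes GLUT6, a hexose transporter found on lysosomal membranes of macrophages. Its intensity was 1700 and 1454 on the 2 unstimulated arrays, 4461 and 4361 with IFNγ, 3541 and 2812 with opsonised cells, and 9988 and 10524 under both. All stimulated arrays lay above the unstimulated ones, both single stimuli lay between unstimulated and combined, and the groups did not overlap. Slc2a6 rose 2.81-fold with IFNγ (log2 change 1.49 ± 0.12 SE, limma adjusted p = 4.4e-10), 2.01-fold with opsonised cells (1.01 ± 0.12, adjusted p = 1.16e-06) and 6.52-fold with both (2.71 ± 0.12, adjusted p = 4.6e-15). Opsonised cells added to IFNγ raised it 2.32-fold and IFNγ added to opsonised cells 3.25-fold. The log2 change with both exceeded the sum of the single changes by 0.21 ± 0.16 (adjusted p = 0.595), which did not pass.

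Slc2a3 encodes GLUT3, a high-affinity glucose transporter of the plasma membrane, and it went the other way. Its intensity was 354 and 337 unstimulated, 266 and 249 with IFNγ, 349 and 311 with opsonised cells, and 174 and 200 under both. It fell by 0.89 ± 0.11 on the log2 scale with both stimuli (adjusted p = 1.1e-06) and by 0.82 when IFNγ was added to opsonised cells (adjusted p = 5.23e-06). The sizes of these 2 falls rest on a dim combined level, next to the filter level of 200. The fall of 0.42 with IFNγ alone (adjusted p = 0.00815) missed the threshold without unstimulated array 1 (0.0718) or IFNγ array 2 (0.0934). Slc2a8, which encodes GLUT8 of intracellular membranes, fell by 0.68 ± 0.13 with both (adjusted p = 0.000135), and its other probe gave -0.30. Slc50a1, a sugar efflux transporter of the SWEET family, was 0.61 higher on the log2 scale with both than with opsonised cells alone (adjusted p = 0.000601).

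**Figure D2:**
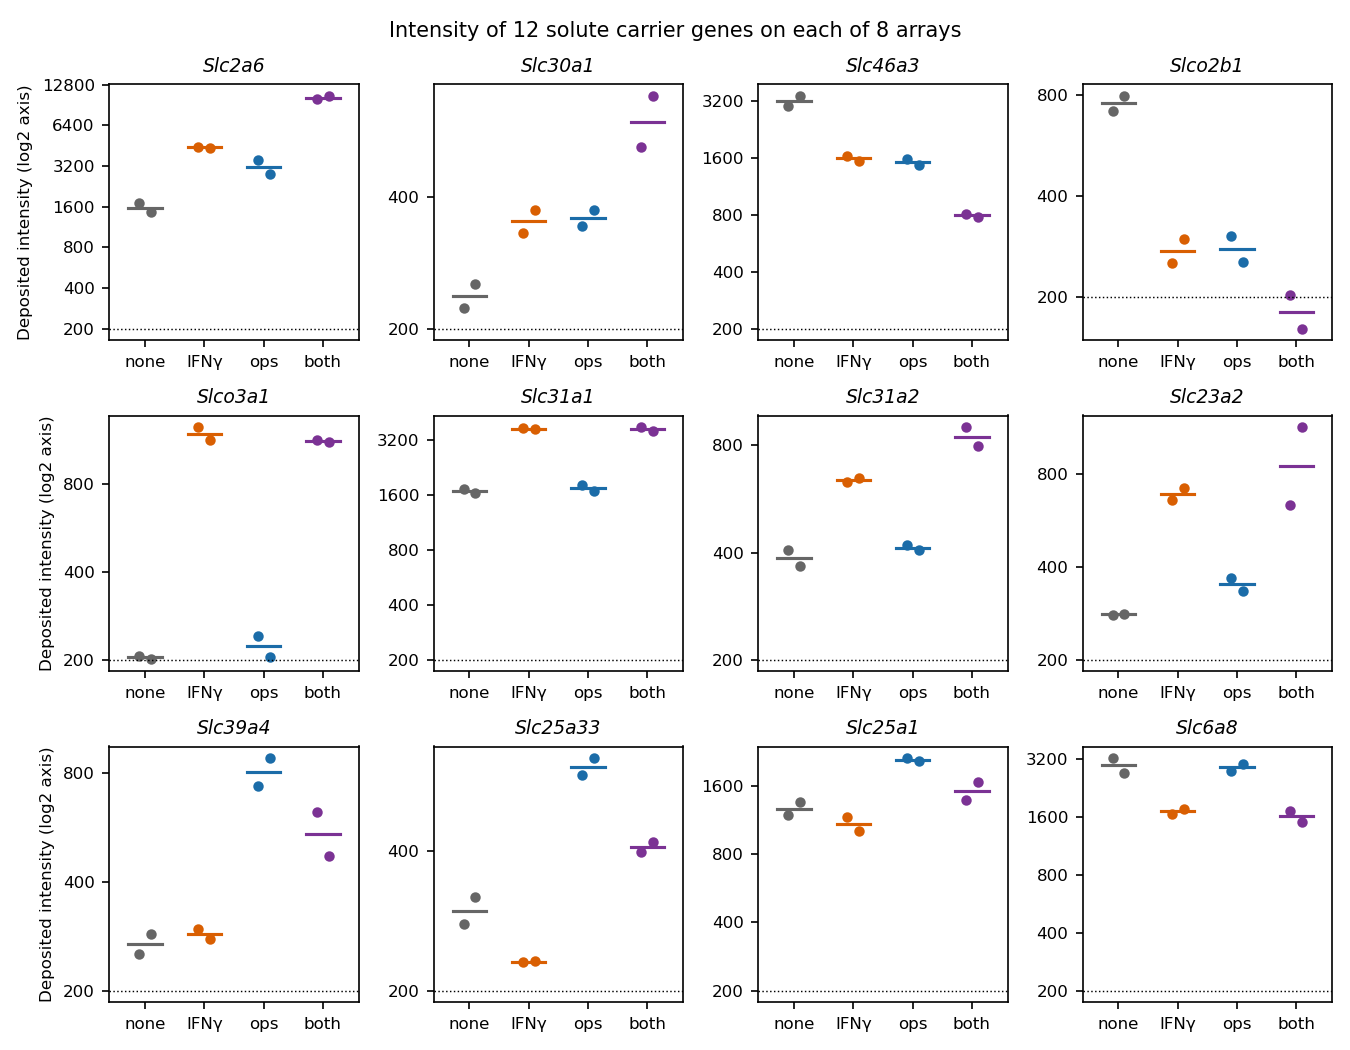
Deposited intensity (log2 axis) of 12 solute carrier genes on each of 8 arrays, with the geometric mean of each group of 2 arrays as a bar; none is unstimulated, ops is opsonised cells, and the dotted line is the intensity of 200 used as a filter. Slc2a6 reaches 9988 and 10524 with both stimuli, Slco3a1, Slc31a1, Slc31a2 and Slc23a2 are high in both groups with IFNγ, and Slc39a4, Slc25a33 and Slc25a1 are highest with opsonised cells alone.

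Transporters of zinc, copper and magnesium were the class with the most higher calls under both stimuli. Of 21 genes, 4 rose and none fell with IFNγ, 3 rose and 1 fell with opsonised cells, and 10 rose (47.6%) and 2 fell with both, beside 14.5% higher over all features; shifted by the median housekeeping level, these became 4 and 8. Without unstimulated array 1 the 10 became 6, and without unstimulated array 2 or combined array 2 they became 8. With IFNγ 19% of the class were higher and 0% lower, beside 9.45% and 12.4% over all features. The shares with opsonised cells were 14.3% and 4.76%, beside 6.06% and 6.17%, and 9.52% were lower with both, beside 20.6%. The median log2 change of the 21 with both was 0.29, against -0.03 over all features. Zinc leaves the cytosol through ZnT exporters of the Slc30 family and enters it through ZIP importers of the Slc39 family, and copper enters through CTR1, the product of Slc31a1.

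The 2 copper genes rose with IFNγ and were not called with opsonised cells alone, and Slc31a2 stood higher with both stimuli than with IFNγ alone. Slc31a1 had intensities of 1740 and 1639 unstimulated, 3730 and 3712 with IFNγ, 1834 and 1680 with opsonised cells, and 3787 and 3602 under both. The 4 arrays with IFNγ ran from 3602 to 3787 and the 4 without it from 1639 to 1834. It rose by 1.14 ± 0.10 on the log2 scale with IFNγ (2.20-fold, adjusted p = 8.53e-09) and by 1.13 ± 0.10 with both (adjusted p = 5.76e-09), with 0.06 ± 0.10 for opsonised cells (adjusted p = 0.793). Its neighbour on chromosome 4, Slc31a2, encodes CTR2, which acts on copper held in endosomes and lysosomes. Slc31a2 had 407 and 368 unstimulated, 632 and 649 with IFNγ, 419 and 406 with opsonised cells, and 900 and 795 under both. It rose by 0.73 ± 0.12 with IFNγ (adjusted p = 5.94e-05) and by 1.13 ± 0.12 with both (adjusted p = 5.21e-08), with 0.09 ± 0.12 for opsonised cells alone (adjusted p = 0.695).

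Slc30a1 encodes ZnT1, the zinc exporter of the plasma membrane. Its intensity was 223 and 253 unstimulated, 331 and 375 with IFNγ, 344 and 374 with opsonised cells, and 521 and 682 under both. The single stimuli gave similar levels, the combination the highest, and no stimulated array overlapped the unstimulated pair. With both it rose 2.51-fold (log2 change 1.33 ± 0.13, adjusted p = 2.23e-08), and it was higher with both than with IFNγ alone by 0.76 (adjusted p = 0.000232) and than with opsonised cells alone by 0.73 (adjusted p = 0.000158). The single rises of 0.57 (adjusted p = 0.00275) and 0.59 (adjusted p = 0.00357) missed the threshold without unstimulated array 1 (0.0595 for IFNγ and 0.0779 for opsonised cells), without IFNγ array 2 for IFNγ (0.0614) and without opsonised-cell array 2 for opsonised cells (0.054). The upstream stretch with GAGTGCA in capitals is that of Slc30a1.

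Slc39a4 encodes ZIP4, a zinc importer best known from the intestine. Its intensity was 253 and 286 unstimulated, 296 and 278 with IFNγ, 738 and 880 with opsonised cells, and 625 and 473 under both. Arrays with opsonised cells lay above all others, and those without IFNγ highest. It rose by 1.58 ± 0.14 on the log2 scale with opsonised cells (adjusted p = 1.27e-08) and 2.02-fold with both (1.01 ± 0.14, adjusted p = 2.42e-06), with 0.09 ± 0.14 for IFNγ (adjusted p = 0.699). Slc39a6, a ZIP importer of the plasma membrane, rose by 0.69 ± 0.13 with opsonised cells (adjusted p = 0.000628), from 1086 and 1089 to 1584 and 1950. Slc30a6, which encodes the Golgi zinc transporter ZnT6, rose by 0.62 ± 0.12 with both stimuli (adjusted p = 0.000313), where the single stimuli gave -0.04 and 0.15. Slc41a2, a magnesium transporter, rose by 0.56 ± 0.12 with both (adjusted p = 0.000418). Slc30a5, the gene of ZnT5, which pairs with ZnT6 in the Golgi, fell by 0.55 ± 0.11 with both (adjusted p = 0.000317). Slc41a3, another magnesium transporter gene, fell by 0.46 ± 0.13 with both (adjusted p = 0.00932), a call lost without either unstimulated array or combined array 1. Its log2 change with opsonised cells, -0.41 (adjusted p = 0.0435), was called on the brightest probe, while the other probe gave 0.02. That call was lost under cyclic loess, normexp and gene-centred housekeeping scaling and in 5 of 8 fits without 1 array, among them those without either unstimulated or either IFNγ array or opsonised-cell array 2.

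**Figure D3:**
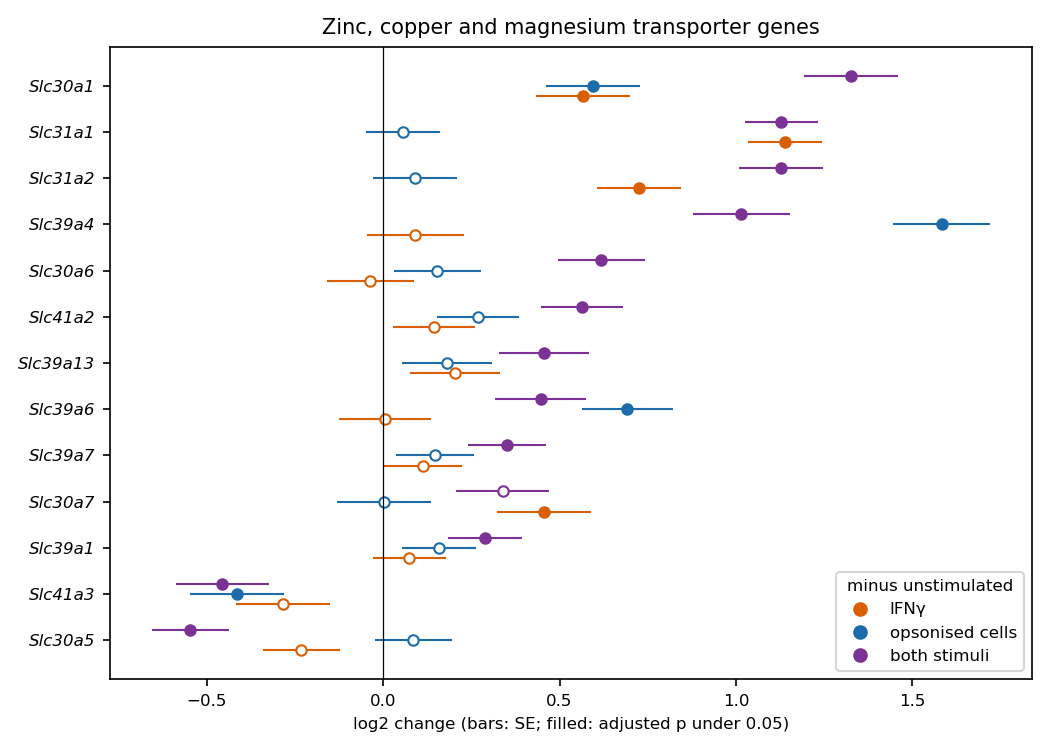
Log2 change against unstimulated macrophages (x axis, bars are 1 SE from the fit) of the 13 zinc, copper and magnesium transporter genes called in at least 1 comparison, for IFNγ, opsonised cells and both; filled points have an adjusted p under 0.05. Slc31a1 and Slc31a2 rise with IFNγ and not with opsonised cells alone, and Slc31a2 lies higher with both than with IFNγ. Slc39a4 and Slc39a6 rise with opsonised cells, and Slc30a1 lies at 1.33 with both.

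Transporters of organic ions, bile acids and fatty acids numbered 18 and held the gene with the largest IFNγ response of the 165. Slco3a1 encodes OATP3A1, a transporter of prostaglandins and other organic anions. Its intensity was 206 and 202 unstimulated, 1247 and 1124 with IFNγ, 242 and 205 with opsonised cells, and 1130 and 1111 under both. The 4 arrays with IFNγ ran from 1111 to 1247 and the 4 without it from 202 to 242. Slco3a1 rose 5.81-fold with IFNγ (log2 change 2.54 ± 0.12, adjusted p = 6.28e-14) and 5.49-fold with both (2.46 ± 0.12, adjusted p = 7.72e-14), with 0.13 ± 0.12 for opsonised cells (adjusted p = 0.584). Background had not been subtracted from these intensities, so the fold is understated for dim levels: with normexp background correction the IFNγ change was 3.66 on the log2 scale. The other probes for this gene moved the same way by less, down to 0.28, and the mean over its probes rose by 1.37.

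Slco2b1 encodes OATP2B1, which carries steroid sulfates and other organic anions. Its intensity was 718 and 795 unstimulated, 254 and 299 with IFNγ, 304 and 255 with opsonised cells, and 203 and 161 under both. The unstimulated arrays lay far above the rest, and the combined arrays lowest. It fell by 1.46 ± 0.13 on the log2 scale with IFNγ (adjusted p = 8.24e-09), by 1.44 ± 0.13 with opsonised cells (adjusted p = 3.82e-08) and with both it fell by 2.06 ± 0.13 (adjusted p = 1.06e-11). With normexp background correction Slco2b1 fell by 3.425 with both.

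Slc22a4 encodes OCTN1, the ergothioneine transporter. Its intensity was 203 and 205 unstimulated, 180 and 181 with IFNγ, 467 and 360 with opsonised cells, and 230 and 291 under both. It rose 2.01-fold with opsonised cells (log2 change 1.01 ± 0.13, adjusted p = 4.62e-06) and was lower by 0.67 when IFNγ was added to them (adjusted p = 0.000269). With normexp the rise with opsonised cells was 1.78. Slc27a1, a fatty acid transporter, was 1424 and 1709 with opsonised cells and 791 and 888 under both, against 1138 and 1255 unstimulated. It fell by 0.51 ± 0.12 with both (adjusted p = 0.00158) and by 0.90 ± 0.12 when IFNγ was added to opsonised cells (adjusted p = 3.03e-06).

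In the class of vitamins and choline, 11 genes passed, of which 1 rose and 1 fell with IFNγ, none rose and 1 fell with opsonised cells, and 2 rose and 4 fell with both. The shares were 9.09% each way with IFNγ, beside 9.45% higher and 12.4% lower over all features. With opsonised cells 9.09% were lower, beside 6.17%, and with both 18.2% were higher and 36.4% lower, beside 14.5% and 20.6%. Slc46a3 was the 1 lower call with each single stimulus. It is counted here by its family, that of the proton-coupled folate carrier, and encodes a lysosomal membrane transporter. Its intensity was 2988 and 3382 unstimulated, 1639 and 1534 with IFNγ, 1579 and 1468 with opsonised cells, and 809 and 782 under both. The single stimuli gave levels near each other, and the combination gave the lowest, with no overlap between unstimulated, single and combined arrays. Slc46a3 fell by 1.00 ± 0.11 on the log2 scale with IFNγ (adjusted p = 1.88e-07), by 1.06 ± 0.11 with opsonised cells (adjusted p = 2.92e-07) and by 2.00 ± 0.11 with both (4.00-fold lower, adjusted p = 6.29e-13). The combined change differed from the sum of the single ones by 0.07 ± 0.16 (adjusted p = 0.898).

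Slc23a2 encodes SVCT2, a sodium-dependent transporter of ascorbate. Its intensity was 280 and 281 unstimulated, 659 and 717 with IFNγ, 367 and 335 with opsonised cells, and 632 and 1131 under both. It rose 2.45-fold with IFNγ (log2 change 1.29 ± 0.17, adjusted p = 3.07e-06) and 3.02-fold with both (1.59 ± 0.17, adjusted p = 6.78e-08), and the combined pair was far apart. Slc44a1, a choline transporter of the plasma and mitochondrial membranes, rose by 0.66 ± 0.13 with both on its brightest probe (adjusted p = 0.000207), while the other probe gave 0.17. The folate carrier gene Slc19a1 and the thiamine carrier gene Slc19a2 had log2 changes of -0.45 (adjusted p = 0.00457) and -0.46 (adjusted p = 0.00885) with both. The folate carrier gene Slc46a1 passed 200 on neither combined array, and its level was at least 1.23-fold lower there than in unstimulated macrophages (adjusted p = 0.00208). Each of these 3 calls was lost in at least 1 fit that left out an array: without unstimulated array 1 for Slc19a1 and Slc19a2, and without combined array 2 for Slc46a1 and Slc19a2.

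Among 18 transporters of sodium, potassium, calcium, chloride, protons and bicarbonate, 4 rose and none fell with IFNγ (1 and 7 when shifted by the median housekeeping level), 1 rose with opsonised cells, and 5 rose and 2 fell with both. With IFNγ 22.2% were higher and 0% lower, beside 9.45% and 12.4% over all features. With opsonised cells 5.56% were higher, beside 6.06%, and with both 27.8% were higher and 11.1% lower, beside 14.5% and 20.6%. Slc24a3, a potassium-dependent sodium/calcium exchanger, had intensities of 317 and 362 unstimulated, 719 and 793 with IFNγ, 308 and 321 with opsonised cells, and 622 and 520 under both. It rose 2.23-fold with IFNγ (log2 change 1.16 ± 0.13, adjusted p = 1.53e-07) and 1.68-fold with both (0.75 ± 0.13, adjusted p = 4.61e-05). Slc12a9, of the cation-chloride cotransporter family, rose by 0.83 ± 0.12 with IFNγ (adjusted p = 8.78e-06), from 462 and 399 to 767 and 759. Its 3 probes ranged from 0.11 to 0.83 in that comparison. Slc4a8, a sodium-driven chloride/bicarbonate exchanger, rose by 0.63 ± 0.11 with IFNγ (adjusted p = 9.49e-05), from 190 and 200 to 313 and 292. The brightest probe of the class, that of the anion exchanger gene Slc4a2, gave group geometric means of 1494 to 1728 and was called in none of the 6 comparisons.

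Slc8a1 encodes the sodium/calcium exchanger NCX1. Its intensity was 667 and 678 unstimulated, 1009 and 1094 with IFNγ, 767 and 640 with opsonised cells, and 650 and 648 under both. The IFNγ arrays stood above the other 6. It rose by 0.64 ± 0.12 with IFNγ (adjusted p = 0.00025) and was lower by 0.69 when opsonised cells were added (adjusted p = 0.000181).

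The 26 carriers of mitochondria gave 3 higher and 4 lower calls with IFNγ, 6 higher and none lower with opsonised cells, and 6 higher and 5 lower with both. Their shares with IFNγ, 11.5% and 15.4%, lay near the 9.45% and 12.4% over all features, and with opsonised cells 23.1% were higher beside 6.06%. Under both stimuli 23.1% were higher and 19.2% lower, beside 14.5% and 20.6%. The 6 calls with opsonised cells fell to 3 without unstimulated array 1, unstimulated array 2 or opsonised-cell array 2. Slc25a33 encodes a pyrimidine nucleotide carrier that supplies mitochondrial DNA and RNA synthesis. Its intensity was 278 and 318 unstimulated, 230 and 232 with IFNγ, 581 and 632 with opsonised cells, and 397 and 418 under both. Opsonised cells alone stood highest and IFNγ alone lowest, without overlap. It rose 2.04-fold with opsonised cells (log2 change 1.03 ± 0.12, adjusted p = 1.16e-06), by 0.82 when they were added to IFNγ (adjusted p = 2.22e-05), and was lower by 0.57 when IFNγ was added to them (adjusted p = 0.000615). Its upstream stretch has the NRF2 letters GCGACGTCA. Slc25a36, the gene of a related pyrimidine nucleotide carrier, went down with IFNγ, by 0.49 ± 0.12 (adjusted p = 0.00353), and with both, by 0.58 ± 0.12 (adjusted p = 0.000411).

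Slc25a1 encodes the citrate carrier, which exports citrate for fatty acid and sterol synthesis. Its intensity was 1187 and 1354 unstimulated, 1166 and 1008 with IFNγ, 2119 and 2051 with opsonised cells, and 1388 and 1665 under both. It rose by 0.72 ± 0.12 with opsonised cells (adjusted p = 0.000197), with -0.23 ± 0.12 for IFNγ (adjusted p = 0.205). Slc25a10, the dicarboxylate carrier that exchanges malate and succinate for phosphate, fell by 0.78 ± 0.12 with IFNγ (adjusted p = 4.45e-05), from 932 and 911 to 498 and 581, and by 0.53 ± 0.12 with both (adjusted p = 0.00179). Slc25a12, an aspartate/glutamate carrier of the malate-aspartate shuttle, rose by 0.69 ± 0.13 with both (adjusted p = 0.000141). Slc25a25, a calcium-dependent ATP-magnesium/phosphate carrier, rose by 0.76 ± 0.12 with both (adjusted p = 1.96e-05). Slc25a38, a glycine carrier needed for heme synthesis, rose by 0.62 ± 0.11 with both on its brightest probe (adjusted p = 9.81e-05), and its 3 probes ranged from 0.08 to 0.62. Slc8b1, the mitochondrial sodium/calcium exchanger, rose by 0.57 ± 0.11 with both (adjusted p = 0.000243). Slc25a30, a carrier of sulfur and phosphate anions, fell by 0.64 ± 0.11 with both (adjusted p = 9.52e-05). The brightest carrier probe, that of the ADP/ATP carrier gene Slc25a5, gave group geometric means of 11158 to 12706 and was not called against unstimulated macrophages.

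Transporters of amino acids and peptides numbered 25, with 3 higher and 4 lower calls for IFNγ, 3 higher and none lower for opsonised cells, and 4 higher and 4 lower for both. These shares, 12% and 16% with IFNγ and 16% each way with both, lay near those over all features, 9.45% and 12.4%, and 14.5% and 20.6%. With opsonised cells 12% were higher and 0% lower, beside 6.06% and 6.17%. Slc6a8 encodes the creatine transporter. Its intensity was 3252 and 2733 unstimulated, 1671 and 1770 with IFNγ, 2797 and 3048 with opsonised cells, and 1732 and 1521 under both. The arrays with IFNγ all lay below those without it. It fell by 0.79 ± 0.11 with IFNγ (adjusted p = 1.06e-05) and by 0.88 ± 0.11 with both (adjusted p = 1.42e-06), with -0.03 ± 0.11 for opsonised cells (adjusted p = 0.908). Slc6a6, the taurine transporter gene, was the brightest probe of the class, with 18669 and 18756 unstimulated and 11902 and 12115 on the combined arrays, and fell by 0.64 ± 0.10 with both (adjusted p = 2.77e-05). Slc15a3, which encodes the lysosomal peptide and histidine transporter PHT2, rose by 0.49 ± 0.11 with both (adjusted p = 0.000826), from 7653 and 7155 to 9388 and 11426.

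Slc6a9 encodes GLYT1, a glycine transporter. Its intensity was 167 and 182 unstimulated, 205 and 225 with IFNγ, 276 and 292 with opsonised cells, and 188 and 183 under both. Neither unstimulated nor combined arrays passed 200, so the level with opsonised cells was at least 1.42-fold higher than in unstimulated macrophages (adjusted p = 1.93e-05) and than with both (adjusted p = 3.64e-05). Slc38a2, the glutamine and alanine transporter SNAT2, had a log2 change of -0.74 ± 0.12 with both (adjusted p = 4.25e-05) on its brightest probe, while its 3 probes ranged from -0.74 to 0.23, so the direction depends on the probe.

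The class of nucleotide sugars and acetyl-CoA in the secretory pathway, set by Slc family, held 19 genes that passed. The acetyl-CoA transporter gene Slc33a1 did not pass, and membership does not mean a known substrate for each gene. Of the 19, none rose and 2 fell with IFNγ, and 2 rose and 3 fell with both. With opsonised cells 1 rose (5.26%), beside 6.06% over all features. The shares with both, 10.5% higher and 15.8% lower, lay somewhat under the 14.5% and 20.6% over all features, and the 10.5% lower with IFNγ lay near 12.4%. Slc35c1 encodes the Golgi GDP-fucose transporter. It fell by 0.66 ± 0.12 with both (adjusted p = 0.00014), from 2795 and 3263 to 1908 and 1912. Slc35c2, a gene of the same subfamily, fell by 0.55 ± 0.12 with both (adjusted p = 0.00097). With IFNγ the 3 probes of Slc35c2 ranged from -0.39 to 0.06, and with both from -0.71 to -0.05.

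Of the remaining classes, the nucleoside transporters held 2 genes, both lower with both stimuli, beside 20.6% lower over all features. Slc29a3 encodes ENT3, the nucleoside transporter of lysosomes. Its intensity was 2026 and 1747 unstimulated, 2176 and 2184 with IFNγ, 1593 and 1718 with opsonised cells, and 1321 and 1195 under both. It fell by 0.58 ± 0.11 with both (adjusted p = 0.000226) and by 0.79 ± 0.11 when opsonised cells were added to IFNγ (adjusted p = 1.72e-05). The vesicular and lysosomal class held 3 genes, of which Slc17a5, the gene of the lysosomal sialic acid exporter sialin, fell by 0.94 ± 0.12 with both (adjusted p = 1.28e-06), from 769 and 792 to 397 and 417. Among 7 genes of the carboxylate class, set by Slc family, none was called with IFNγ, beside 9.45% higher and 12.4% lower over all features. With opsonised cells 1 rose (14.3%, Slc16a10) and 1 fell (14.3%, Slc16a6), beside 6.06% and 6.17%. Under both stimuli 2 rose (28.6%, beside 14.5%). Slc16a10, an aromatic amino acid transporter gene counted here by its family, had a log2 change of 0.42 ± 0.12 with opsonised cells (adjusted p = 0.0261), a call lost without unstimulated array 1 or opsonised-cell array 2. Slc16a6, a ketone body and taurine transporter gene, had -0.47 ± 0.13 (adjusted p = 0.0132), a call lost without unstimulated array 1 or opsonised-cell array 1, and its 3 probes ranged from -0.47 to 0.06. Slc16a3, which encodes the lactate exporter MCT4, was 0.53 ± 0.11 higher with both than with opsonised cells alone (adjusted p = 0.000651) on its brightest probe, while the other probe gave 0.04. The only phosphate transporter gene that passed, Slc20a2, and the 2 genes placed in no substrate class, Slc49a4 and Slc66a2, were called in none of the 6 comparisons. The symbols of 3 genes begin with Slc although they encode no transporter, among them Slc9a3r1, the gene of the scaffold protein NHERF1. It fell by 0.66 ± 0.10 with opsonised cells (adjusted p = 9.11e-05) and by 0.95 ± 0.10 with both (adjusted p = 9.55e-08).

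The combined group was also set against each single stimulus. When opsonised cells were added to IFNγ, 12 genes were higher (7.27%) and 11 lower (6.67%), against 6.47% and 7.47% over all features. When IFNγ was added to opsonised cells, 22 were higher (13.3%) and 33 lower (20%), against 11.3% and 16.3%. Of these, 5 of 12, 5 of 11, 13 of 22 and 14 of 33 were kept in each fit without 1 array, and the 23 calls of the first comparison became 14 without IFNγ array 1 and 15 without IFNγ array 2 or combined array 2. Changes of 2-fold or more were 1 up for the first, Slc2a6, and 5 up for the second, Slc2a6, Slco3a1, Slc23a2, Slc31a1 and Slc31a2.

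For 5 genes, the log2 change with both stimuli differed from the sum of the 2 single changes at an adjusted p under 0.05: 1 above the sum (0.606% of 165) and 4 below it (2.42%), against 1.12% and 1.3% over all features. Slc6a9 lay below the sum by 0.92 ± 0.14 (adjusted p = 0.000288) on the intensities as measured. Neither the unstimulated nor the combined arrays passed 200 for Slc6a9 and Slc1a4, so the sizes given for these 2 genes rest on levels under the filter and are not measured departures. Slc8a1 lay below it by 0.75 ± 0.17 (adjusted p = 0.0144), Slc1a4, a neutral amino acid transporter gene, by 0.65 ± 0.14 (adjusted p = 0.0134), and Slc29a3 by 0.61 ± 0.16 (adjusted p = 0.0403). Slco2b1 lay above the sum by 0.84 ± 0.19 (adjusted p = 0.0151), that is, it fell less with both than the single falls add up to, and its combined level reached the filter level on 1 of 2 arrays. The Slco2b1 call was lost with normexp background correction (0.62, adjusted p = 0.466).
Left out in turn, 4 arrays ended the call for Slc8a1 (unstimulated arrays 1 and 2, IFNγ array 2 and opsonised-cell array 1, adjusted p up to 0.0943). For Slc1a4 the second array of each group did so (up to 0.101). For Slco2b1 these were unstimulated array 2, IFNγ array 1, opsonised-cell array 2 and combined array 1 (up to 0.123). For Slc29a3 they were the second array of each group and IFNγ array 1 (up to 0.206). Without single arrays the count of 5 ran from 1, without unstimulated array 2, to 5, with 2 without IFNγ array 2 and 3 without opsonised-cell array 2 or combined array 2.

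**Figure D4:**
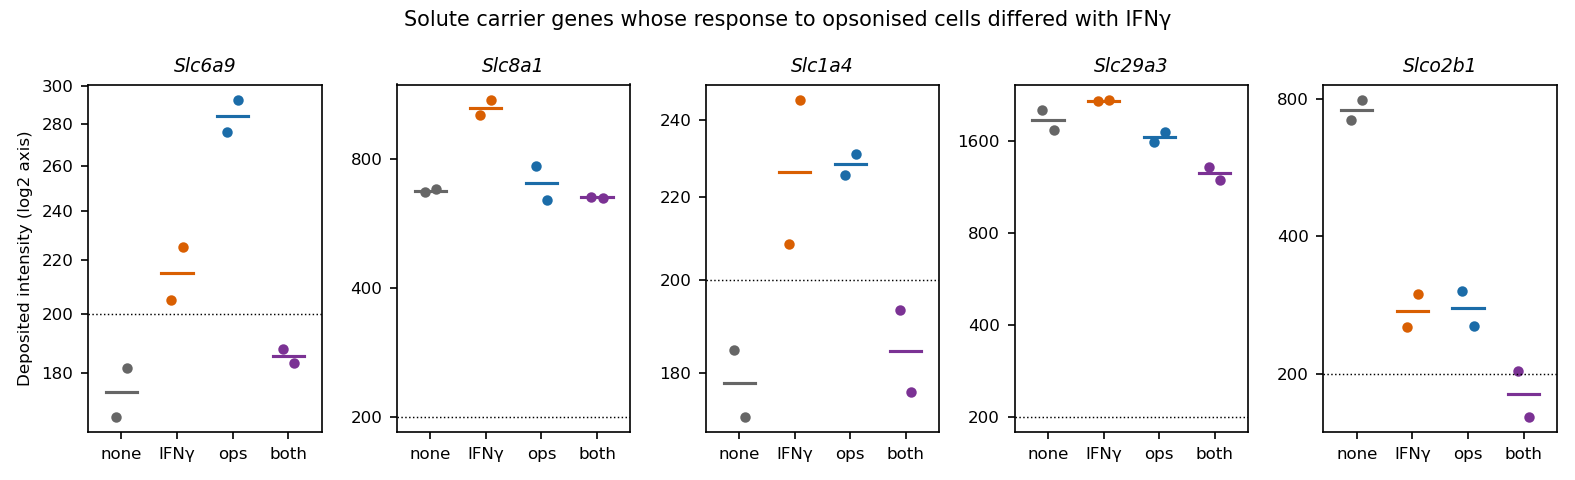
Deposited intensity (log2 axis) on each array, with geometric means as bars, of the 5 solute carrier genes whose log2 change with both stimuli differed from the sum of the single changes; none is unstimulated, ops is opsonised cells, and the dotted line is the intensity of 200. Slc6a9 and Slc1a4 lie near the unstimulated level with both, Slc8a1 is high with IFNγ alone, Slc29a3 is lowest with both, and Slco2b1 is low in all stimulated groups.

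Of the 329 genes, 164 did not pass the filter. Just inside it, the lower array of the best group read 200.02 for Slc35f4, 200.48 for Slc22a19 and 200.53 for Slc1a7, and just outside it 199.62 for Slc16a1, 199.29 for Slc6a17 and 199.22 for Slc43a3. Above 200 in all 4 groups were 116 of the 165 genes, 31 passed in 2 or 3 groups and 18 in 1. By group, 138 genes passed unstimulated, 146 with IFNγ, 141 with opsonised cells and 137 under both. At a filter of 300, 93 genes remained. Several probes that passed the filter were available for 40 of the 165 genes, and in none of them were probes called in opposite directions. Another probe had the opposite sign to a call for Slc12a9, Slc22a13, Slc38a2 and Slc39a7 with both. The same held for Slc25a20 and Slc35c2 with IFNγ, and for Slc16a6, Slc25a38 and Slc41a3 with opsonised cells. For Slc38a2 it also held when the combined group was set against each single stimulus.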

How the data were processed

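Expression was measured on 8 Illumina MouseRef-8 arrays, 2 in each of 4 groups named by the sample titles. The authors deposited linear intensity values for 25697 probes. GenomeStudio, of unstated version, is named per the submitters' processing notes. From the values, the arrays were quantile normalized, since the sorted arrays differ by at most 0.961% at any rank, and background was not subtracted, since the lowest intensity is 119.8. Another deposited table of 16 per-sample columns was not used, because its column names match no sample's labels.

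Here log2 intensity was tested with limma 3.58.1 in R 4.3.3 (lmFit over 4 group means, eBayes with an intensity trend, 22.6 degrees of freedom in all, of which 4 come from the arrays), with Benjamini-Hochberg adjustment within each of 6 comparisons at 0.05. The arrays give no counts, and their number, 2 a group, limits the precision. Genes were named through the platform annotation (23978 probes with 1 symbol, 1719 with none), each read by its brightest probe by mean over 8 arrays, and kept above an intensity of 200 on both arrays of at least 1 group. Of 18312 features 9341 were tested. Where a group had no array above 200, a bound on the fold against it is given; departures from additivity that rest on such groups are on the intensities as measured and are said to be. The procedure was tested on simulated data.

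The rule for genes to name took, in each comparison, up to 10 with the largest rise and up to 10 with the largest fall among called genes, all with a called departure from additivity, and the brightest gene and the one with the smallest p over the 4 groups in each substrate class, 48 in all. Slc15a3, Slc16a3, Slc19a1, Slc19a2, Slc46a1, Slc8b1 and Slc49a4, named as well, were chosen after their values were seen. Substrate classes follow the Slc families; those of Slc66, Slc49 and Slc8b1 and the 3 non-transporters were assigned after the data were seen. The members and lists were chosen with earlier results of these data known. The labels do not state whether a group's 2 arrays hold separate mice or cultures; p-values then cover only the spread among these arrays, possibly technical. Whether replicate numbers pair arrays across groups is not known, and the main fit took the arrays as unpaired. Same-numbered arrays had deviations from their group means that correlated between -0.04 and 0.04 over 6 pairs of groups. That shows no shared shift but does not settle whether such arrays shared a mouse or culture. Alternatives were other normalizations, filters, probe rules, a replicate block and leaving out each array. Promoter sequences come from RefSeq (GRCm38.p6); 1 of the motifs planned for them is not reported here.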

Additional observations from a re-analysis of the deposited data

Results flagged for a closer look

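The response to opsonised cells differed between macrophages with and without IFNγ for 5 solute carrier genes, by limma's interaction term, which subtracts the opsonised-cell change without IFNγ from that on top of IFNγ. For Slc6a9, the glycine transporter gene, this difference was -0.92 on the log2 scale (adjusted p = 0.000288) on the intensities as measured, but its unstimulated and combined arrays did not pass 200. Its level with opsonised cells alone was at least 1.42-fold higher than in either of those groups. For Slc8a1, the sodium/calcium exchanger gene, it was -0.75 (adjusted p = 0.0144), and for Slc1a4, a neutral amino acid transporter gene, -0.65 (adjusted p = 0.0134), with the same 2 groups under 200. For Slc29a3, the lysosomal nucleoside transporter gene, it was -0.61 (adjusted p = 0.0403). For Slco2b1, an organic anion transporter gene, it was 0.84 (adjusted p = 0.0151), with a combined level next to the filter level of 200. The calls for Slc8a1, Slc1a4, Slc29a3 and Slco2b1 were each lost in some of the fits that left out 1 array. That for Slco2b1 was also lost with normexp background correction. The call kept in all those fits, that of Slc6a9, rests on groups under the filter. These comparisons share arrays, and 1.12% of all features lay above and 1.3% below the sum of the single changes.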

How the results depend on the processing

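Of 2506 comparisons of a named gene's called change with an alternative, 2253 kept direction and call, 247 lost the call and 6 changed sign. The replicate block left 34 solute carrier genes called with IFNγ and 24 with opsonised cells, and changed no count of calls by over 1.5 times; it cost 2 named calls. Shifting arrays by the median housekeeping level gave, for IFNγ, opsonised cells, opsonised cells added to IFNγ, IFNγ added to opsonised cells and departure from additivity, counts of 97, 10, 11, 87 and 0 solute carrier genes in place of 35, 24, 23, 55 and 5. Over all features it gave 5901, 364, 487, 5150 and 37, and 6110 with both stimuli, in place of 2037, 1142, 1302, 2578, 226 and 3278. It turned 6 values: with IFNγ Slc6a9 to -0.11, Slc25a38 to -0.10 and Slc1a4 to -0.07021, and with both Slc22a4 to -0.11, Slc39a6 to -0.003832 and Slc50a1 to -0.02009. The gene-centred variant, chosen after seeing the data, gave 8 departures from additivity. The cause of these moves was not tested beyond the shift of the median of all features.
Leaving out 1 array, called solute carrier genes ran from 20 to 38 with IFNγ (20 without IFNγ array 2, 23 without unstimulated array 2), from 11 to 24 with opsonised cells (11 without unstimulated array 1, 12 without opsonised-cell array 2), from 14 to 29 for opsonised cells added to IFNγ (14 and 15 without IFNγ array 1 or 2, 15 without combined array 2) and from 1 to 5 for departure from additivity. With both stimuli they ran from 44 to 66 and for IFNγ added to opsonised cells from 41 to 53. Over all features the counts ran from 1300 to 2140 with IFNγ, 657 to 1175 with opsonised cells, 726 to 1409 for opsonised cells added to IFNγ and 101 to 241 for departure from additivity. Cyclic loess gave 1007 higher and 839 lower features with IFNγ in place of 883 and 1154.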

Other observations

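ATP-driven ABC transporters were read beside the solute carriers. Of 16 that passed the filter, 2 rose and 2 fell with IFNγ, 3 rose and none fell with opsonised cells, and 3 rose and 5 fell with both. Their shares were 12.5% each way with IFNγ beside 9.45% and 12.4% over all features, 18.8% higher with opsonised cells beside 6.06%, and 18.8% and 31.2% with both beside 14.5% and 20.6%. Abcc1, a glutathione-conjugate exporter, had geometric mean intensities of 263 unstimulated, 220 with IFNγ, 654 with opsonised cells and 380 under both, and rose by 1.31 ± 0.13 on the log2 scale with opsonised cells (limma adjusted p = 7.68e-08). Abcb6, a porphyrin transporter, rose by 0.85 ± 0.12 with opsonised cells (adjusted p = 1.64e-05), and Abcc5, a cyclic nucleotide exporter, by 0.92 ± 0.12 (adjusted p = 9.87e-06). Abcg1, a sterol exporter, had 352, 648, 293 and 528 in the same order and rose by 0.88 ± 0.12 with IFNγ (adjusted p = 7.57e-06). Abcc3, another organic anion exporter, fell by 0.71 ± 0.13 with IFNγ (adjusted p = 0.00018), from 1660 to 1013.

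Of 15 tested solute carriers whose symbols do not begin with Slc, none rose and 2 fell with IFNγ, 1 rose with opsonised cells, and none rose and 7 fell with both, beside 20.6% lower over all features. The 2 that fell with IFNγ were 13.3%, beside 12.4%, and the 1 that rose with opsonised cells 6.67%, beside 6.06%. The 7 that fell with both were 46.7%. Ctns, the lysosomal cystine exporter, fell by 0.61 ± 0.11 with IFNγ (adjusted p = 0.000164) and by 0.73 ± 0.11 with both (adjusted p = 8.82e-06), from 1836 to 1105. Xpr1, the phosphate exporter, fell by 0.51 ± 0.13 with both (adjusted p = 0.0028). Emb, a partner chain of monocarboxylate transporters, had a log2 change of 0.29 ± 0.12 with both (adjusted p = 0.0628), and was higher with both than with IFNγ alone by 0.39 (adjusted p = 0.0313). Of 11 housekeeping genes tested, 1 rose (Hprt) and 1 fell with IFNγ, and 1 rose and 3 fell with both. These were 9.09% each way with IFNγ, beside 9.45% and 12.4% over all features. Under both stimuli they were 9.09% and 27.3%, beside 14.5% and 20.6%.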
